A study of Homo sapiens with 6 samples.

Results

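Of the 8529 genes in the deposited expression table, 80 belong to the cytokine, chemokine, interferon and MHC families. They were taken by their symbols, namely those starting with CXCL, CXCR, IFN, IFI, HLA-, IRF, NFKB, OAS or ISG, and those in which CCL, CCR, IL or STAT is followed by a digit. The cells were SW480, a line established from a human colorectal adenocarcinoma, of wild-type genotype. They were grown for 72 h in the same L-15 medium with fetal bovine serum on hydrogels of 2 kPa (soft) or 25 kPa (stiff), with 3 libraries at each stiffness. The labels do not say whether the 3 libraries of a stiffness came from separately raised cultures, so p-values measure only the spread between these libraries, which may be technical. SW480 is a single cell line, and no immune or stromal cells are named in the labels. The unit is FPKM, a count of sequenced fragments scaled by both transcript length and library size. This scaling is meant to let levels be set side by side between genes, but the absolute levels here need care, as described below for GAPDH. The mean over the 6 libraries was at least 1 FPKM for 45 of the 80 genes and below 1 for the other 35.

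Chemokines are small secreted proteins that guide migrating cells through receptors with several membrane-spanning segments, and epithelial tumour cells can carry both. Interleukins and interferons bind receptor chains at the cell surface, which act through STAT proteins, whereas many inflammatory signals act through NF-kappaB, a factor held in the cytoplasm by inhibitors such as NFKBIA. Interferons switch on a set of antiviral genes and the MHC class I molecules that present peptides to T cells. In the intestine these systems connect the epithelium with immune cells.

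The libraries summed to between 201030 and 263028 FPKM over all genes, and between libraries of the same stiffness Pearson's r of the log2 values, taken over genes (which are not independent replicates), was 0.974 to 0.988. Of 12 colorectal epithelial markers 7 were in the table, with KRT18 at 2611 to 3358 FPKM and EPCAM at 64.67 to 100.75 FPKM, while KRT20 and CDX1 were near 0. Of these 7 markers, 6 had a negative log2 fold change from 2 kPa to 25 kPa under each scaling between libraries. Of all genes, 40.4% had a negative log2 fold change as deposited. The groups did not overlap for KRT19, a keratin, with means of 1562 FPKM at 2 kPa and 1132 FPKM at 25 kPa (limma adjusted p = 0.537). CDX2, an intestinal transcription factor, had 0.57, 0.79 and 0.67 FPKM at 2 kPa and 0.31, 0.27 and 0.07 FPKM at 25 kPa, also without overlap (limma adjusted p = 0.224). Of 19 leukocyte markers 7 were in the table. They summed to 15.6 to 18.1 FPKM at 2 kPa and 16.0 to 17.7 FPKM at 25 kPa. No gene of the table has a value of 0, so the absence of a 0 tells nothing about these markers. The defining marker PTPRC was not analysed here. Of 12 fibroblast and endothelial markers 3 were in the table, and they summed to 0.830 to 2.14 FPKM at 2 kPa and 2.85 to 3.14 FPKM at 25 kPa. The part of these markers in the results was not tested. Within a culture, fewer cells with a transcript and less of it in each cell cannot be told apart. The absolute levels need care, since GAPDH, an enzyme abundant in most cells, was listed at 0.320 to 3.35 FPKM.

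No gene of the 80 passed the threshold of an adjusted p under 0.05 between 25 kPa and 2 kPa (limma on log2(FPKM + 1), Benjamini-Hochberg over all 8529 genes), while 0.117% of all genes did. At an unadjusted p under 0.05, 9 of the 80 were found, and 8 of these were lower at 25 kPa. The genes lower at 25 kPa made up 10.0% of the 80, against 3.19% of all genes. CXCR4 was the only gene of the 80 on the higher side at this level, or 1.25% of them against 6.96% of all genes. Soft and stiff libraries were fully apart for 2 genes that were higher at 25 kPa (2.50% of the 80, against 11.2% of all genes) and for 8 that were lower (10.0%, against 4.78%). Of the 80 genes, 48 had a negative log2 fold change, with a median of −0.06 over the 80 and of 0.05 over all genes. Among the 45 genes with a mean of at least 1 FPKM the median was −0.07, and among all 5808 genes at that level it was 0.08. These shares moved with the scaling between libraries. With FPKM rescaled to equal library sums, 13 of the 80 genes were lower at an unadjusted p under 0.05 and 1 was higher, against 4.67% and 3.48% of all genes. With quantile normalisation 12 of the 80 were lower and 1 higher, against 5.29% and 5.52% of all genes. With library medians centred 11 were lower and 1 higher, against 4.58% and 4.57% of all genes. Over all genes, 68.6% of those at an unadjusted p under 0.05 were higher at 25 kPa as deposited, 42.7% with equal sums, 51.1% when values were quantile normalised and 49.9% when library medians were centred. Without 2 kPa replicate 2, 5 of the 80 were higher and 5 lower at an unadjusted p under 0.05, while 8.5% of all genes were higher and 2.77% lower. Without 25 kPa replicate 1, 2 were higher and 3 lower, against 5.02% and 2.27% of all genes. Without 25 kPa replicate 3, 3 were higher and 5 lower, against 5.02% and 2.45% of all genes.

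**Figure D1:**
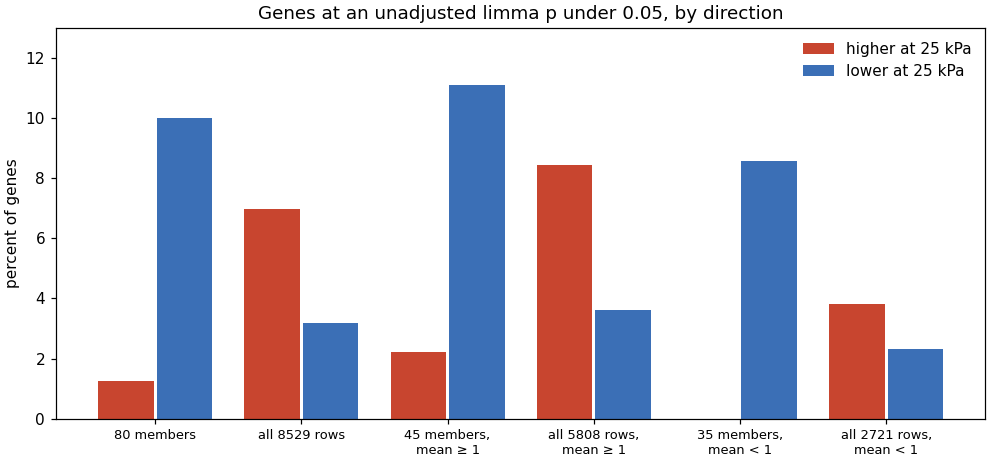
Percent of genes at an unadjusted limma p under 0.05 that were higher (red) or lower (blue) at 25 kPa, for the 80 genes and for all genes, together and split at a mean of 1 FPKM. Among the 80 genes the lower side was larger (10.0% against 1.25%), whereas over all genes the higher side was larger (6.96% against 3.19%).

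The levels as listed spanned more than 3 orders of magnitude, and comparisons between genes need the care described for GAPDH. HLA-C, an MHC class I heavy chain, was the most abundant at 174.67 to 236.57 FPKM across the 6 libraries. IFI27L2, named for its similarity to an interferon-induced gene, followed at 83.93 to 153.31 FPKM, so that its highest library lay below the lowest of HLA-C. ISG15, a ubiquitin-like protein induced by interferon, had 63.95 to 103.68 FPKM and overlapped IFI27L2. Next came IFITM2 and IFITM3, membrane proteins that restrict virus entry, with means of 47.2 and 40.5 FPKM that did not separate beyond their spread. CXCR4 stood at a mean of 30.4 FPKM and was the most abundant chemokine receptor. Its level was followed by that of IFI30, a lysosomal thiol reductase, at 24.6 FPKM and of NFKBIA at 22.7 FPKM. The least abundant was IFNE, an epithelial type I interferon, with a mean of 0.0683 FPKM. Just above the division at 1 FPKM were STAT5A at 1.07 FPKM and IFIH1 at 1.09 FPKM, and just below it were CCR1 at 0.905 FPKM, IFI27L1 at 0.875 FPKM and CCL24 at 0.860 FPKM. Within a stiffness, the coefficient of variation had a median of 24.3% at 2 kPa and 18.6% at 25 kPa for genes of at least 1 FPKM, and of 39.8% and 37.2% for those below.

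**Figure D2:**
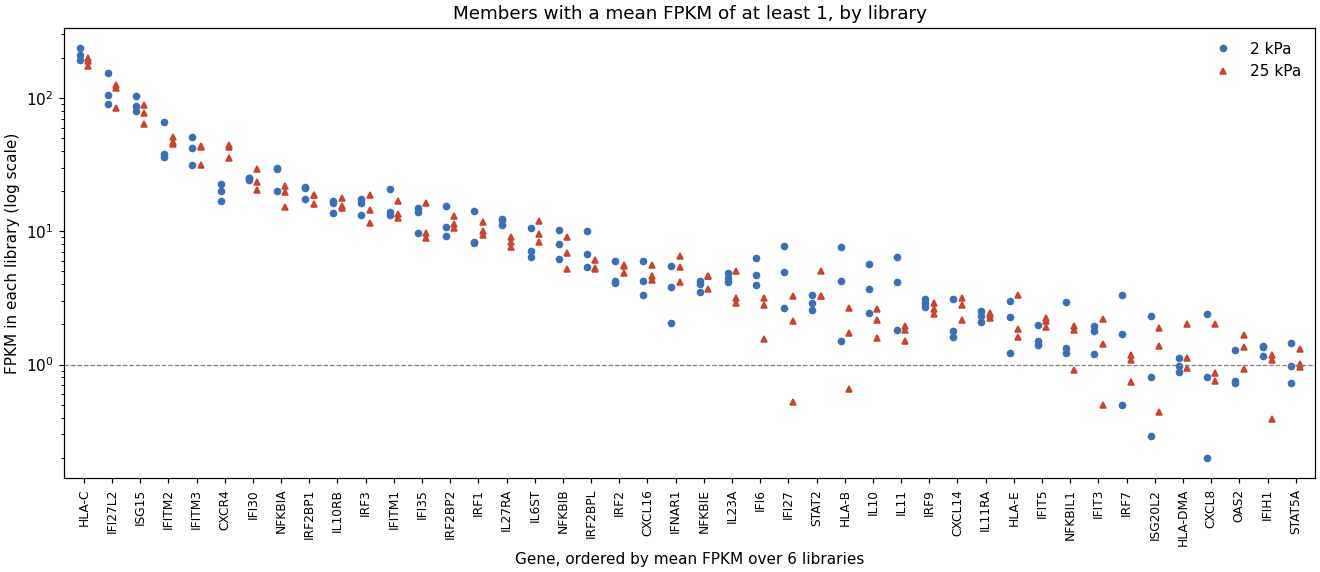
FPKM of 44 genes with a mean of at least 1 in each of the 6 libraries, on a log axis and ordered by mean. Blue circles are libraries at 2 kPa, red triangles those at 25 kPa, and the dashed line marks 1 FPKM. Only CXCR4, IL27RA and IFI6 show the stiffness levels fully apart.

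Among the 5 chemokine receptors, CXCR4 was the single one with a mean of at least 1 FPKM. CXCR4 is the receptor for CXCL12 and is known for its part in the homing of tumour cells. On the soft hydrogel CXCR4 stood at 16.79, 20.14 and 22.54 FPKM, and on the stiff hydrogel at 43.08, 44.64 and 35.48 FPKM. The lowest library on the stiff hydrogel was therefore well above the highest on the soft one. The means were 19.8 ± 2.89 and 41.1 ± 4.90 FPKM (SD, n = 3), 2.07-fold apart. On the log2 scale CXCR4 was 1.02 higher, with a standard error of 0.14 and a 95% interval of 0.69 to 1.35, the 11th smallest p of all genes (limma adjusted p = 0.0560). CXCR4 thus missed the threshold by a small margin. It passed with a pseudocount of 0.1 (limma adjusted p = 0.0432) or 0.01 (0.0485) in place of 1, and when only genes with a mean of at least 1 FPKM were tested (0.0373), and over all alternatives its adjusted p ranged from 0.0373 to 0.250. Its log2 fold change stayed between 0.90 and 1.12 in all 14 alternatives, each with an unadjusted p under 0.05. CCR1, a receptor of leukocytes for several CC chemokines, had 0.710 to 1.04 FPKM in the 6 libraries. CXCR1, the receptor for CXCL8, CXCR6, the receptor for CXCL16, and CCR10 had means of 0.0883 to 0.108 FPKM, and the stiffness levels overlapped for all 4 of these receptors.

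The promoter of CXCR4 is shown because this gene alone of the 80 was higher at an unadjusted p under 0.05. The sequence holds the 250 bases before the first start that RefSeq lists for CXCR4 (GRCh38.p14, chr2:136118150-136118399, reverse strand), and none of the 3 motifs described with the interferon-induced genes was found in it.
CXCR4: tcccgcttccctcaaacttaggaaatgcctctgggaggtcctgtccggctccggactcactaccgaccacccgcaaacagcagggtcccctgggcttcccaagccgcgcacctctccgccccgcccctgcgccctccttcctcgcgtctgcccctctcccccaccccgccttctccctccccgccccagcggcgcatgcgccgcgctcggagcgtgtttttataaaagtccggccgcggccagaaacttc

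Of the 10 chemokines, 3 had a mean of at least 1 FPKM and 7 lay below it. CXCL16, which exists as a membrane-bound and a soluble form, had the highest mean (4.68 FPKM), followed by CXCL14 (2.43 FPKM), a chemokine of normal epithelia. CXCL16 had 4.25, 5.95 and 3.30 FPKM at 2 kPa and 5.60, 4.34 and 4.62 FPKM at 25 kPa, and CXCL14 had 1.61, 3.11 and 1.79 FPKM at 2 kPa and 2.14, 3.14 and 2.79 FPKM at 25 kPa. The groups overlapped for both, with 95% intervals of the log2 fold change of −0.41 to 0.63 and of −0.34 to 0.82. CCL24 (eotaxin-2), which attracts eosinophils, showed the clearest difference. It had 1.22, 1.61 and 1.29 FPKM at 2 kPa and 0.45, 0.24 and 0.35 FPKM at 25 kPa, so that every soft library was more than 2-fold above every stiff one. The means were 1.37 ± 0.208 and 0.347 ± 0.105 FPKM (SD, n = 3), 3.96-fold apart. The log2 fold change on the log2(FPKM + 1) scale, which understates changes of low genes, was −0.82 with a standard error of 0.15 (limma adjusted p = 0.103, range over its 13 alternatives 0.0680 to 0.414). With a pseudocount of 0.1 it was −1.74. CCL2, which attracts monocytes, had 0.42, 0.59 and 0.64 FPKM at 2 kPa and 0.13, 0.39 and 0.23 FPKM at 25 kPa. The groups did not overlap, the means were 2.20-fold apart, and the log2 fold change was −0.31 (limma adjusted p = 0.403). The unadjusted p of CCL2 exceeded 0.05 in 5 of 13 alternatives, without 2 kPa replicate 2 or 3 and without 25 kPa replicate 1 or 3 among them. CCL5 and CCL17, which attract T cells, had means of 0.377 and 0.113 FPKM.

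CXCL1, CXCL2, CXCL3 and CXCL8 attract neutrophils and are classical NF-kappaB targets. CXCL8 had 0.20, 2.39 and 0.80 FPKM at 2 kPa and 0.75, 2.02 and 0.86 FPKM at 25 kPa. CXCL1 had 0.18, 0.77 and 0.47 FPKM at 2 kPa and 0.39, 0.65 and 0.56 FPKM at 25 kPa. CXCL2 had 0.07, 0.61 and 0.25 FPKM at 2 kPa and 0.06, 0.36 and 0.21 FPKM at 25 kPa. In all 4 genes replicate 2 was the highest library at both stiffness levels, and in all 4 the stiffness levels overlapped. The spread among libraries of 1 stiffness therefore exceeded the difference between stiffness levels, with a 95% interval for CXCL8 from −0.71 to 0.99. CXCL1, CXCL2 and CXCL3 are close paralogs whose reads could have been divided among them by the counting, which leaves each level uncertain.

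**Figure D3:**
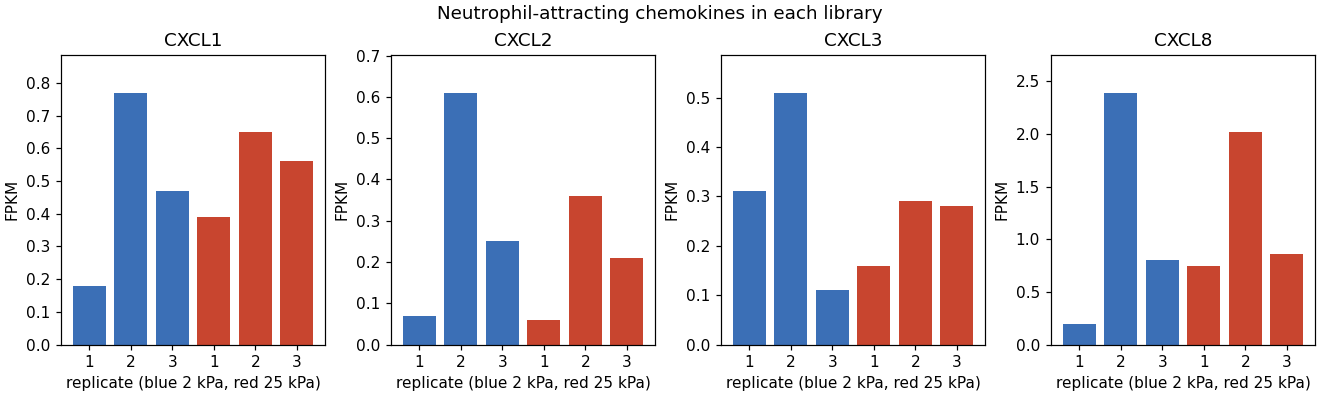
FPKM of CXCL1, CXCL2, CXCL3 and CXCL8 in each library, with replicates 1, 2 and 3 at 2 kPa (blue) and at 25 kPa (red). The bar of replicate 2 is the highest of its stiffness in each panel, for CXCL8 with 2.39 FPKM at 2 kPa and 2.02 FPKM at 25 kPa.

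The likeness of these paralogs extends to their promoters on chromosome 4. The 60 bases from 110 to 51 before the start are printed (RefSeq, GRCh38.p14), at chr4:73869283-73869342, forward strand, for CXCL1, at chr4:74099246-74099305, reverse strand, for CXCL2 and at chr4:74038740-74038799, reverse strand, for CXCL3. Capitals mark a form of the kappaB motif, searched on both strands as GGGA, any 2 bases and TTCC, which matches here at overlapping positions on both strands.
CXCL1: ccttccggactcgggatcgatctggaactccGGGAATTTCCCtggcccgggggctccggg
CXCL2: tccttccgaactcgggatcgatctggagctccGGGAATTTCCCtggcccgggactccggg
CXCL3: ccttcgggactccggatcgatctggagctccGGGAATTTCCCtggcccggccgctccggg

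Of the 5 interleukin ligands, IL10, IL11 and IL23A had a mean of at least 1 FPKM, and all 3 had a negative log2 fold change. IL11, a cytokine of the IL-6 family that signals through IL11RA and IL6ST, had 6.37, 4.14 and 1.81 FPKM at 2 kPa and 1.5, 1.93 and 1.81 FPKM at 25 kPa. The soft library of replicate 3 lay among the stiff ones, so the groups overlapped. The log2 fold change was −0.79 with a standard error of 0.34 (limma adjusted p = 0.484), and without 2 kPa replicate 1 it was −0.47. The unadjusted p of IL11 exceeded 0.05 in 6 of 14 alternatives, 5 of them fits that left out a library (either of 2 kPa replicates 1 and 2, or any at 25 kPa). IL10, which dampens inflammation, had 2.43, 3.67 and 5.66 FPKM at 2 kPa and 1.59, 2.17 and 2.60 FPKM at 25 kPa, which is −0.62 on the log2 scale (limma adjusted p = 0.523). The lowest soft library lay just under the highest stiff one. IL23A, a subunit of IL-23, had 2.89 to 5.0 FPKM over the 6 libraries, and IL12A and IL15 had means of 0.210 and 0.510 FPKM.

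The receptor chains for these ligands went different ways. IL27RA, the chain that binds IL-27 together with IL6ST, had 12.12, 12.27 and 11.09 FPKM at 2 kPa and 8.34, 9.10 and 7.63 FPKM at 25 kPa. All stiff libraries lay below all soft ones, the means were 11.8 ± 0.642 and 8.36 ± 0.735 FPKM (SD, n = 3), and the soft mean was 1.42-fold the stiff one. The log2 fold change of −0.46 had a standard error of 0.14 and a 95% interval of −0.77 to −0.14, which missed the threshold (limma adjusted p = 0.300, range over 14 alternatives 0.235 to 0.654). In each of the 14 alternatives it was negative with an unadjusted p under 0.05. IL6ST (gp130), the chain shared by the receptors of the IL-6 family, had 7.11, 10.62 and 6.44 FPKM at 2 kPa and 8.24, 9.62 and 11.91 FPKM at 25 kPa. Its groups overlapped, with a 95% interval of −0.20 to 0.77. IL11RA was listed at 2.07 to 2.54 FPKM in the 6 libraries, with means of 2.31 and 2.34 FPKM and an interval of −0.45 to 0.48. IL10RA, the ligand-binding chain of the IL-10 receptor, had 0.35, 0.57 and 0.59 FPKM at 2 kPa and 0.16, 0.26 and 0.25 FPKM at 25 kPa. The groups did not overlap, the means were 2.25-fold apart and the log2 fold change was −0.29 (limma adjusted p = 0.377). For IL10RA the unadjusted p exceeded 0.05 with a pseudocount of 0.01, without 2 kPa replicate 2 or 3 and without 25 kPa replicate 1. IL10RB, its partner chain, was more abundant, with soft and stiff means of 15.7 ± 1.72 and 16.0 ± 1.48 FPKM (SD, n = 3) and a 95% interval of −0.28 to 0.34. The remaining chains, IL1RAP, IL1R2, IL2RB and IL2RG, and IL4I1, an amino acid oxidase induced by interleukin-4, had means of 0.118 to 0.593 FPKM, and their groups overlapped.

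The promoters of IL27RA and NFKBIA, a further gene on the lower side, each held 1 match to the kappaB letters given above, and they are shown here as 250 bases before the start (RefSeq, GRCh38.p14) with the match in capitals. The IL27RA sequence lies at chr19:14031512-14031761, forward strand, and the NFKBIA sequence at chr14:35404750-35404999, reverse strand. In both, the match begins less than 100 bases before the start. A window was matched for 7 of the 8 genes lower at an unadjusted p under 0.05. Those of CCL24, IL10RA and IL11 held none of the 3 motifs searched.
IL27RA: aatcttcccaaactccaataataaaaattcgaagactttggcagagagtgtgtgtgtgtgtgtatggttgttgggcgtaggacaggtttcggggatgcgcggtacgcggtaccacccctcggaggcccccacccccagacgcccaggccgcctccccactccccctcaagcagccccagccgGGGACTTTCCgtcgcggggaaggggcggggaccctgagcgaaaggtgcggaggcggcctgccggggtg
NFKBIA: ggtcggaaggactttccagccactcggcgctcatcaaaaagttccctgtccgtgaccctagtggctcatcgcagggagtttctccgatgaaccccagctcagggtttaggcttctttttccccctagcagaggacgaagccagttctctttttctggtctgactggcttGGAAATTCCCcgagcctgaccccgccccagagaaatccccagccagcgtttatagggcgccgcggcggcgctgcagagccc

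**Figure D4:**
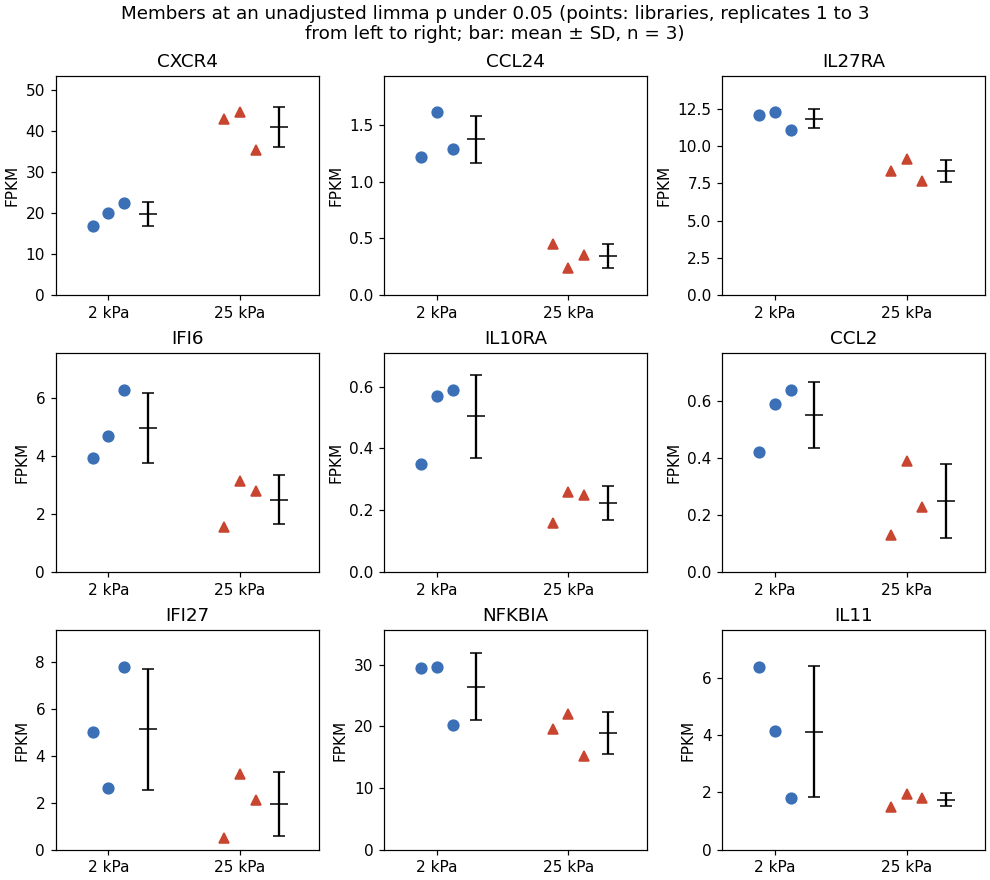
FPKM by library for the 9 genes at an unadjusted limma p under 0.05, with replicates 1 to 3 from left to right and the mean ± SD (n = 3) as a bar. The stiffness levels are apart for CXCR4, CCL24, IL27RA, IFI6, IL10RA and CCL2 and overlap for IFI27, NFKBIA and IL11.

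The interferon system was represented by 1 ligand, 2 receptor chains and 19 genes named as interferon-induced. IFNAR1, a chain of the type I interferon receptor, had 3.80, 5.46 and 2.04 FPKM at 2 kPa and 5.42, 4.14 and 6.47 FPKM at 25 kPa, with overlap and a log2 fold change of 0.46 (95% interval −0.21 to 1.14). IFNGR2, a chain of the interferon-gamma receptor, had a mean of 0.465 FPKM. STAT2 and IRF9, parts of the factor that type I interferon activates, had means of 3.39 and 2.77 FPKM and overlapped between the stiffness levels.

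The 19 genes named as interferon-induced were grouped by symbol, not by induction shown for each of them. Of the 19, 14 had a mean of at least 1 FPKM. A negative log2 fold change was found for 13 of the 19 (68.4%, against 40.4% of all genes), with a median of −0.08 against 0.05 over all genes. At an unadjusted p under 0.05, 2 were lower (10.5%, against 3.19% of all genes) and none was higher (against 6.96%). IFI6, an antiviral membrane protein, had 3.93, 4.69 and 6.30 FPKM at 2 kPa and 1.55, 3.16 and 2.79 FPKM at 25 kPa. Its groups did not overlap, the means of 4.97 ± 1.21 and 2.50 ± 0.843 FPKM (SD, n = 3) were 1.99-fold apart, and the log2 fold change was −0.78 with a standard error of 0.26 (limma adjusted p = 0.356). IFI27, a related mitochondrial protein, had 4.99, 2.64 and 7.78 FPKM at 2 kPa and 0.52, 3.24 and 2.12 FPKM at 25 kPa. The groups overlapped, the means of 5.14 ± 2.57 and 1.96 ± 1.37 FPKM (SD, n = 3) were 2.62-fold apart, and the log2 fold change was −1.08 (standard error 0.43, limma adjusted p = 0.444). Both depended on single libraries. Without 25 kPa replicate 1 the log2 fold change was −0.57 for IFI6 and −0.66 for IFI27, and the unadjusted p exceeded 0.05 for both. The same held for IFI6 without 2 kPa replicate 3, and for IFI27 without 2 kPa replicate 1 or 3 and without 25 kPa replicate 3.

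As deposited, the other abundant genes of this group showed no difference beyond their spread. ISG15 had 87.14, 79.61 and 103.68 FPKM at 2 kPa and 63.95, 88.32 and 77.63 FPKM at 25 kPa, a log2 fold change of −0.24 with a 95% interval of −0.58 to 0.11. It was −0.36 with equal library sums (limma adjusted p = 0.454) and −0.34 with quantile normalisation (0.382), both at an unadjusted p under 0.05. With median centring the unadjusted p of ISG15 exceeded 0.05. IFITM2 had 36.04, 65.76 and 38.05 FPKM at 2 kPa and 45.02, 51.09 and 47.04 FPKM at 25 kPa, with an interval of −0.39 to 0.56. For IFI27L2 the interval was −0.57 to 0.42, and for IFITM3 it was −0.51 to 0.37. IFI30 was the steadiest gene at 2 kPa, with 25.17, 24.18 and 25.26 FPKM, and had 20.24 to 29.19 FPKM at 25 kPa. IFITM1 (15.2 FPKM), IFI35 (12.3 FPKM), IFIT5 (1.86 FPKM), IFIT3 (1.51 FPKM), ISG20L2 (1.19 FPKM), OAS2 (1.12 FPKM) and the viral RNA sensor IFIH1 (1.09 FPKM) also overlapped. Below 1 FPKM, OAS1 was apart on the higher side (limma adjusted p = 0.632). It had 0.05 to 0.08 FPKM at 2 kPa and 0.11 to 0.19 FPKM at 25 kPa. IFIT2 (limma adjusted p = 0.608) and IFITM10 (limma adjusted p = 0.499) were apart on the lower side, and IFIT1 and IFI27L1 overlapped. Of the whole group, 5.26% were thus apart on the higher side, against 11.2% of all genes. With IFI6, 15.8% were apart on the lower side, against 4.78% of all genes. ISG20L2 carries the name of the family but is known as an exonuclease of ribosomal RNA processing. IFITM1, IFITM2 and IFITM3 have near-identical stretches, so the division of reads among them is uncertain.

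The promoters of IFI6 and IFI27 are shown because these genes were the 2 of the group at an unadjusted p under 0.05. Capitals mark the interferon-stimulated response element, searched on both strands as GAAA, any 2 bases and GAAA, and the GAS element bound by STAT dimers, searched as TTC, any 3 bases and GAA, whose letters read alike on both strands. Each sequence holds the 250 bases before the first start listed (RefSeq, GRCh38.p14). That of IFI6 lies at chr1:27672193-27672442, reverse strand, and holds 3 response elements, and that of IFI27 lies at chr14:94110486-94110735, forward strand, and holds 2 response elements with a GAS element that overlaps both.
IFI6: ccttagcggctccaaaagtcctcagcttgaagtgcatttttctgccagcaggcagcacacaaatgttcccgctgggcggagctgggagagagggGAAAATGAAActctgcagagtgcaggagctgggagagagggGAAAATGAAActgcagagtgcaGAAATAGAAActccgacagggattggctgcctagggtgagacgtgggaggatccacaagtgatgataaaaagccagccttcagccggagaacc
IFI27: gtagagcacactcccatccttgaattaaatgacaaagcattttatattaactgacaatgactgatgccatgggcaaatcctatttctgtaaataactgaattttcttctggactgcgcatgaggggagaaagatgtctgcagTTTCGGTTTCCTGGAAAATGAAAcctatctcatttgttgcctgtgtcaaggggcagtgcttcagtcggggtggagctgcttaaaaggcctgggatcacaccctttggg

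A promoter window was matched for 61 of the 80 genes. The response element was found in 10 of them (16.4%), against 3.07% of 27305 promoters of the same length. The 10 were HLA-F, IFI27, IFI6, IFIH1, IFIT1, IFIT3, IFIT5, IFITM1, IFITM3 and ISG15, of which 9 had a negative log2 fold change, with a median of −0.22, and 2, IFI6 and IFI27, were lower at an unadjusted p under 0.05. Of the 51 without the element, 28 had a negative log2 fold change, with a median of −0.05, and 5 were lower at this level. Over all genes, 40.4% had a negative log2 fold change and 3.19% were lower at this level. All of the 10 but HLA-F are among the interferon-induced genes described above, and IFIT1 counts as negative at −0.00014. Whether the element goes with the direction of change was not tested. The kappaB letters were found in 8 of the 61 (13.1%, against 1.42% of all), which besides CXCL1, CXCL2, CXCL3, IL27RA and NFKBIA were IFIH1, IFNGR2 and NFKBIZ. The median log2 fold change of these 8 was −0.08, and of the 53 without the letters −0.07. GAS elements were found in 8 of the 61 (13.1%, against 6.78%). These matches describe the letters in the window only.

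MHC class I molecules consist of a heavy chain and B2M, and class II molecules are loaded with peptides by HLA-DM. HLA-C had 236.57, 210.83 and 193.11 FPKM at 2 kPa and 188.63, 201.38 and 174.67 FPKM at 25 kPa. Its means were 214 ± 21.9 and 188 ± 13.4 FPKM (SD, n = 3), the groups overlapped, and the 95% interval of the log2 fold change was −0.47 to 0.12. The log2 fold change of HLA-C was −0.30 with equal library sums (limma adjusted p = 0.536) and −0.36 with quantile normalisation (0.323). Both had an unadjusted p under 0.05, which was exceeded with median centring. HLA-B had 7.61, 4.22 and 1.49 FPKM at 2 kPa and 1.72, 0.66 and 2.67 FPKM at 25 kPa, a log2 difference of −0.92 (standard error 0.46, limma adjusted p = 0.562). The soft replicate 3 lay below 2 of the stiff libraries, and the log2 fold change of HLA-B was −1.39 without 2 kPa replicate 3 and −0.50 without 2 kPa replicate 1. HLA-E, a ligand of natural killer cell receptors, had 1.23 to 3.35 FPKM over the 6 libraries, with an interval of −0.64 to 0.73. HLA-F was listed at a mean of 0.460 FPKM. The heavy chains are highly similar and differ between individuals, so the division of reads among them is uncertain. Of the class II genes, HLA-DMA had a mean of 1.17 FPKM and overlapped. HLA-DMB had 0.45 to 0.49 FPKM at 2 kPa and 0.21 to 0.38 FPKM at 25 kPa and did not overlap (limma adjusted p = 0.525), and HLA-DRA had a mean of 0.100 FPKM.

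The machinery that supplies class I molecules was followed with a list of 21 genes, of which 16 were in the table. At an unadjusted p under 0.05, 1 of the 16 was higher (6.25%, against 6.96% of all genes) and 1 lower (6.25%, against 3.19%), none passed the adjusted threshold, and the median log2 fold change was 0.06. Its sign depended on the scaling, with 12 of the 16 genes positive as deposited and 6 of 16 (median −0.04) with equal library sums. Over all genes, 59.6% were positive as deposited, and the median was −0.02 with equal library sums. TAPBP (tapasin), which bridges class I molecules to the peptide transporter, had 3.71, 5.12 and 6.11 FPKM at 2 kPa and 1.19, 1.44 and 3.5 FPKM at 25 kPa. The groups did not overlap, and the log2 fold change was −1.03 (standard error 0.32, limma adjusted p = 0.307). TAP2 and TAP1 are the subunits of that transporter. TAP2 had 1.98, 1.03 and 0.38 FPKM at 2 kPa and 1.74, 2.52 and 4.30 FPKM at 25 kPa, with overlap and a log2 difference of 0.87 (limma adjusted p = 0.439). TAP1 had 20.64, 19.16 and 17.90 FPKM at 2 kPa and 16.90, 16.30 and 14.63 FPKM at 25 kPa, without overlap and with a log2 difference of −0.26 (limma adjusted p = 0.534). B2M was listed at 1.04 to 2.08 FPKM, far below HLA-C, its partner, and overlapped.

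The 20 regulators comprised 4 STAT factors, 7 interferon regulatory factors, 3 IRF2-binding proteins and 6 inhibitors or atypical regulators of NF-kappaB. Only NFKBIA had an unadjusted p under 0.05, which is 5.0% of the 20 on the lower side, against 3.19% of all genes, and 0 on the higher side, against 6.96%. NFKBIA (IkappaB-alpha) retains NF-kappaB in the cytoplasm and is itself a target of the factor. It had 29.50, 29.64 and 20.17 FPKM at 2 kPa and 19.64, 22.03 and 15.23 FPKM at 25 kPa. The soft replicate 3 lay within the range of the stiff libraries, and the log2 fold change was −0.45 with a standard error of 0.19 (limma adjusted p = 0.457). The unadjusted p of NFKBIA exceeded 0.05 in 5 of 14 alternatives, which included leaving out 2 kPa replicate 1 or 2 and 25 kPa replicate 1 or 3. NFKBIB and NFKBIE, the related inhibitors, had means of 7.59 and 4.11 FPKM with overlap, and NFKBIL1, NFKBIZ and NFKBID had means of 0.250 to 1.70 FPKM. IRF3, which starts the interferon response to viral nucleic acids, had 16.31, 17.53 and 13.25 FPKM at 2 kPa and 14.35, 18.76 and 11.62 FPKM at 25 kPa (95% interval −0.51 to 0.34). IRF1, an activator of MHC class I genes, had 8.15 to 14.20 FPKM and an interval of −0.43 to 0.55. IRF2, IRF7 and IRF9 had means of 1.42 to 5.04 FPKM and IRF8, a factor of myeloid cells, of 0.137 FPKM. IRF2BP1 had 21.34, 21.13 and 17.51 FPKM at 2 kPa and 18.66, 18.73 and 16.06 FPKM at 25 kPa, with overlap, and IRF2BP2 and IRF2BPL had means of 11.7 and 6.48 FPKM. STAT3 and STAT6 were listed at means of 0.432 and 0.210 FPKM and STAT5A at 1.07 FPKM. For all 20 the stiffness levels overlapped.

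**Figure D5:**
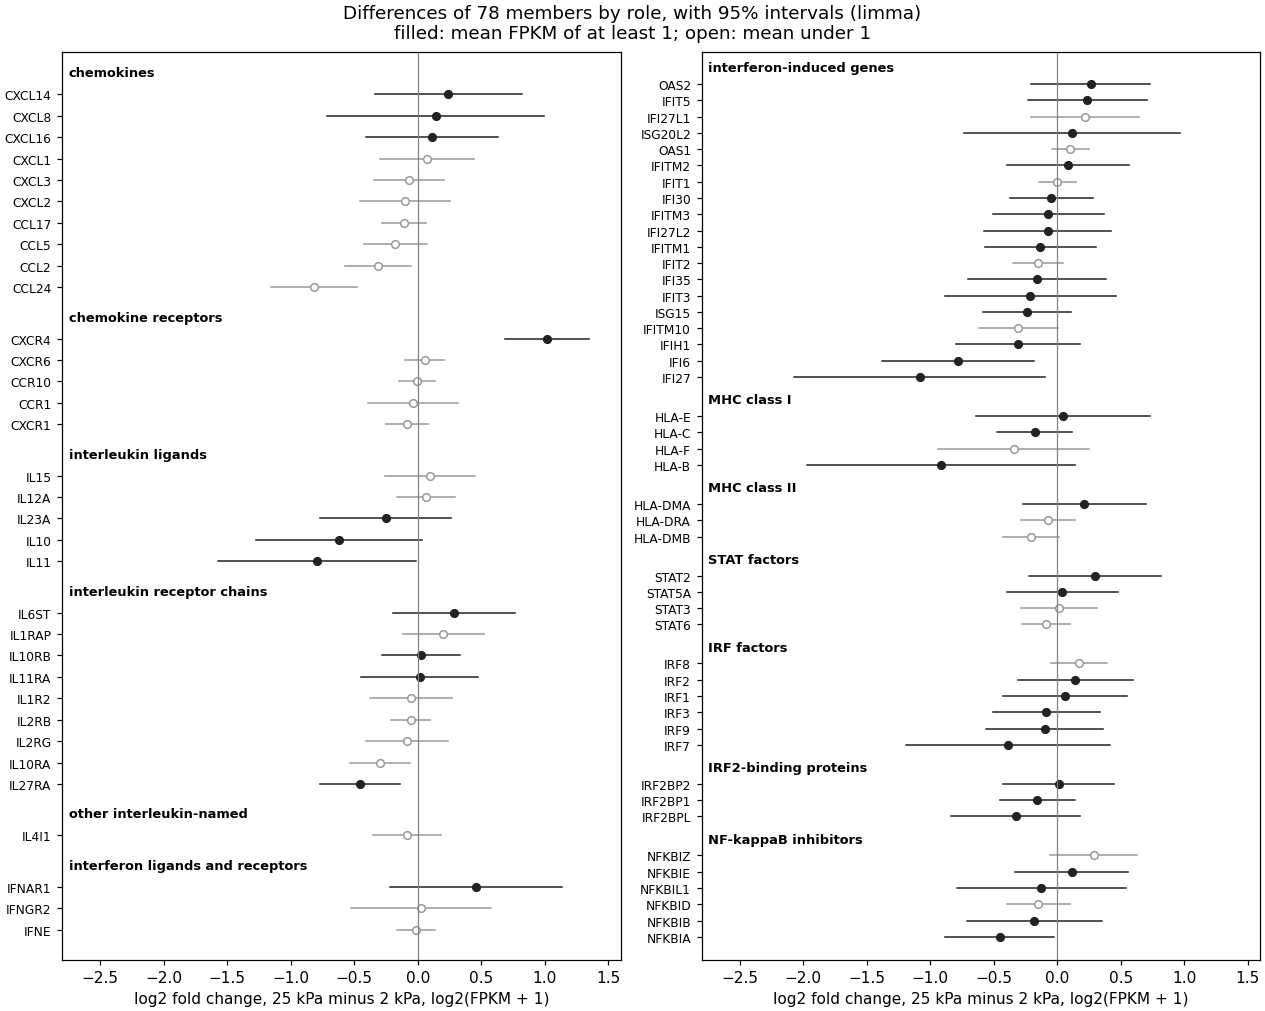
Log2 fold change of 78 of the 80 genes (25 kPa minus 2 kPa, log2(FPKM + 1)) with its 95% interval from limma, grouped by role. Filled points have a mean of at least 1 FPKM and open points a mean below 1. The interval of CXCR4 (0.69 to 1.35) lies on the higher side, and those of CCL24, CCL2, IL27RA, IL10RA, IL11, IFI6, IFI27 and NFKBIA on the lower.

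The genes of the same pathways outside the symbol families were examined in 3 further lists. Of 24 JAK-STAT signalling genes 10 were in the table, of 30 NF-kappaB signalling genes 14, and of 36 further interferon-stimulated genes 19. As deposited, none of these genes had an unadjusted p under 0.05 in either direction, and the median log2 fold changes were 0.06, 0.01 and 0.10. The JAK-STAT median was at or near 0 with equal library sums, and the NF-kappaB median turned to −0.04 with equal sums and with median centring. Of the 19 interferon-stimulated genes, 15 had a positive log2 fold change as deposited, 14 with quantile normalisation and 11 with equal sums or median centring. Of the 19 genes named as interferon-induced, 13 or 14 had a negative one under each of these scalings. As deposited, 59.6% of all genes were positive and 40.4% negative. The median over all genes was 0.05 as deposited, −0.02 with equal sums, 0.003 with quantile normalisation and −0.004 with median centring. The difference between the 2 lists was not tested. PLSCR1, a phospholipid scramblase with antiviral activity, and CMPK2, a mitochondrial nucleotide kinase, were apart on the higher side (10.5% of the 19, against 11.2% of all genes), with means of 5.64 and 7.44 FPKM for PLSCR1 and of 0.370 and 0.587 FPKM for CMPK2 at 2 kPa and 25 kPa. On the lower side JAK3, a kinase of interleukin receptors, was apart in the JAK-STAT list (10.0%, against 4.78% of all genes), with means of 1.93 and 1.17 FPKM. TRAF6, a ubiquitin ligase of NF-kappaB signalling, was apart in the NF-kappaB list (7.14%), with means of 1.28 and 0.980 FPKM. Of the 7 leukocyte markers 3 had a positive and 4 a negative log2 fold change. CORO1A and LAPTM5, the most abundant, had 6.10 and 5.37 FPKM at 2 kPa and 7.14 and 6.36 FPKM at 25 kPa, with overlap, and CD8A, CD3D and NCAM1 had means below 1 FPKM with overlap. CD14, a co-receptor of monocytes for lipopolysaccharide, had 1.23 FPKM at 2 kPa and 0.530 FPKM at 25 kPa (limma adjusted p = 0.491), and LYZ, the lysozyme of myeloid and Paneth cells, had 3.54 and 2.24 FPKM (limma adjusted p = 0.523). Of the fibroblast and endothelial markers, ACTA2, a smooth muscle actin, had 1.17 and 2.35 FPKM (limma adjusted p = 0.421), and LUM and PDGFRB had means below 1 FPKM with overlap.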

How the data were processed

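RNA of SW480 cells on 2 kPa or 25 kPa hydrogels was sequenced, with 3 libraries per stiffness, assigned by their deposited titles (0 columns unassigned). The deposited table gives FPKM by gene symbol for each library, with 2 decimals and 0 values of 0. The submitters' processing notes name HISAT, StringTie, Bowtie2, RSEM and the build hg18, without roles, and no filter or annotation is given in the sources used here. The methods describe small RNA purification, although the table holds mRNA symbols. Ratios of low values to their row's lowest were examined for steps of whole reads. Of those between 1.5 and 3.5, 21.2% lay within 0.1 of a whole number, where 20% is expected without steps. This cannot show whether steps exist, since the lowest value may hold several reads and libraries may differ in depth. The authors' methods give a depth and an average data volume per specimen, but not the reads of each library, so no counting error is given.

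From the deposited FPKM, log2(FPKM + 1) was compared by limma 3.58.1 in R 4.3.3 (lmFit, eBayes with a variance trend, two-sided) over all 8529 genes, with Benjamini-Hochberg adjustment and a threshold of 0.05. DESeq2, named in the authors' methods, models counts and was not run. The fit was tested only on simulated data whose changes in log2(FPKM + 1) were larger than those of any of the 80 genes. Its ability to find smaller changes was not tested. Genes given singly were those at an unadjusted p under 0.05, those of at least 1 FPKM without overlap between groups, and the 3 most abundant per role group, and others were added after their values were seen. Some genes enter the counts but are not reported singly here. The genes and lists were chosen with earlier results of these data known. Replicate numbers did not pair the libraries (deviations of same-numbered libraries correlated at 0.11, −0.27 and −0.12). Promoters came from RefSeq (GRCh38.p14) and were matched by symbol, with the first listed start of each gene, and all 80 symbols are in the RefSeq gene table. Figures were drawn with matplotlib 3.10.9.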

Additional observations from a re-analysis of the deposited data

How the results depend on the processing

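No gene of the 80 passed the adjusted threshold as reported. Exactly 1, CXCR4, passed with a pseudocount of 0.1, with a pseudocount of 0.01 and with only genes of at least 1 FPKM tested (1 in each case), and 0 passed in the other alternatives. When single libraries were left out, between 1 and 5 of the 80 genes were higher at an unadjusted p under 0.05, and between 3 and 7 lower. Over all genes in the same fits, 5.02% to 8.5% were higher and 2.27% to 3.51% lower. Among those of the 80 with at least 1 FPKM, the median log2 fold change was −0.11 to −0.005. The highest count of higher genes, 5, was reached without 2 kPa replicate 2, where 8.5% of all genes were higher. With equal library sums 13 of the 80 genes were lower (against 4.67% of all genes), and 8 were lower as deposited (against 3.19%). All 9 genes at an unadjusted p under 0.05 kept their direction in every alternative that gave a value, and CCL24, CCL2 and IL10RA had none with only genes of at least 1 FPKM tested. With the replicate number as a block, the median was −0.07, the limma adjusted p was 0.222 for CXCR4, 0.370 for CCL24 and 0.491 for IL27RA, and 0 genes passed, but the numbers did not pair the libraries.

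Some small, uncalled log2 fold changes switched sign. With equal library sums that of HLA-E was −0.051, of IFITM2 −0.039 and of IL10RB −0.091. With quantile normalisation IFITM2 had −0.0050 and IL10RB −0.035, and with median centring HLA-E had −0.0070 and IL10RB −0.025. When single libraries were left out, HLA-E ranged from −0.19 to 0.24, CXCL16 from −0.051 to 0.30, CXCL8 from −0.21 to 0.54, IFI27L2 from −0.24 to 0.14, IFITM2 from −0.070 to 0.36, IL10RB from −0.061 to 0.081 and IRF3 from −0.25 to 0.070. The cause was not tested. The reads of each library are unknown, so genes below 1 FPKM have no counting error attached, and 3 libraries per group limit the precision of every value.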

Other observations

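Replicate 2 held the highest of the 3 values for many of the 80 genes, counted separately within each stiffness. At 2 kPa this was so for 43 of the 80 genes (53.8%), a share near the 49.2% of all genes. At 25 kPa it was so for 43 of the 80 (53.8%, against 32.6% of all genes). How many genes were highest in replicate 2 at both levels was not counted. Replicate 1 at 25 kPa was the highest for 20 genes (25.0%, against 31.8%) and replicate 3 for 17 (21.2%, against 35.6%). The neutrophil-attracting chemokines CXCL1, CXCL2, CXCL3 and CXCL8 were among the genes highest in replicate 2 at both levels. The part of this library in the results was not tested beyond leaving it out.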
